A study of Mus musculus with 9 samples.

Results

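The melanocortin receptor pathway of skin was described through 6 genes, chosen by name from the 23361 genes of the deposited table. They are the receptor Mc1r, its ligand precursor Pomc, its antagonist Asip (agouti), the accessory genes Atrn and Mgrn1, and Gnas, which encodes the stimulatory G protein alpha subunit. Of these, 5 were listed under their own symbol, and agouti was listed under the mouse locus symbol a. RNA was sequenced from 9 libraries of mouse skin cells sorted by FACS, whose source label is melanocyte stem cells, the reserve of pigment cell precursors in the hair follicle. They form the groups Quiescent, Active and UVB, with 3 libraries in each, from mice 10 weeks old. Every mouse carried the genotype labelled TBPT, which the labels do not spell out, so no group has a wild-type background. The treatment field named chemical hair removal or ultraviolet B exposure for all samples alike, so the labels do not say which group was depilated.

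MC1R is a G-protein-coupled receptor of pigment cells. Melanocyte-stimulating hormone, which is cut from the POMC precursor, activates it, and the stimulatory G protein and adenylyl cyclase then raise cyclic AMP, which acts through protein kinase A and CREB on Mitf and the genes of dark pigment synthesis. Agouti protein, secreted by the dermal papilla at the base of the hair follicle, competes with the hormone and shifts pigment toward yellow, and attractin and mahogunin are needed for its effect on coat colour.

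The libraries held 21045070 to 35131778 fragments. The 8 melanocyte markers (Mitf, Sox10, Kit, Dct, Tyr, Tyrp1, Pmel and Mlana) summed to 74.3 to 120.2 CPM (counts per 1000000 fragments of the scaled library total) in Quiescent, 7651 to 12450 in Active and 841.4 to 1026 in UVB. The 8 dermal fibroblast markers summed to 334400 to 451100 CPM in Quiescent, 4827 to 6129 in Active and 22060 to 34430 in UVB. The Quiescent libraries therefore went against their label by these markers: the collagen genes Col1a1, Col1a2 and Col3a1 alone took 23.2% to 27.7% of their fragments, against 0.549% to 0.698% in Active and 2.45% to 3.49% in UVB. Xist had 23353 to 30356 fragments in UVB and 4 to 12 elsewhere, while 4 Y-linked genes summed to 0 to 2 in UVB and 4106 to 5591 elsewhere, so sex and UVB exposure cannot be told apart. The labels do not say that libraries came from separate animals, and p-values here measure only the spread between these libraries.

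Mc1r, the receptor, was low in every Quiescent library and high in every Active one. Its level was 0.508, 0.775 and 0.118 CPM in Quiescent replicates 1, 2 and 3, which rests on 13, 13 and 2 fragments. In Active it was 48.6, 28.6 and 30.4 CPM, and in UVB 12.1, 14.1 and 7.09 CPM. The groups did not overlap in any comparison, and UVB lay between the other groups. Mc1r averaged 0.467 ± 0.330 CPM (SD, n = 3) in Quiescent, 35.9 ± 11.0 in Active and 11.1 ± 3.60 in UVB.

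It was 75.6-fold higher in Active than in Quiescent (log2 fold change 6.24 ± 0.53 SE; edgeR quasi-likelihood test, adjusted p = 2.23e-05). It was 23.4-fold higher in UVB than in Quiescent (4.55 ± 0.51, edgeR adjusted p = 0.000168). Between UVB and Active it fell by 1.69 ± 0.40 on the log2 scale, 3.24-fold lower, with an edgeR adjusted p of 0.0179. That last call was lost without Active replicate 1 (-1.42, edgeR adjusted p = 0.0740) and without UVB replicate 1 (-1.76, adjusted p = 0.0543). In bulk libraries, fewer cells of a type and less RNA per cell cannot be told apart, and most melanocyte markers moved with Mc1r: 8 of 8 were higher in Active and 6 of 8 in UVB than in Quiescent, and 7 of 8 were lower in UVB than in Active. Mitf and Mlana were not called in UVB against Quiescent. Over all genes, 29.1% and 25.8% were called higher in those comparisons against Quiescent, and 9.19% lower in UVB against Active. The part of melanocyte number in the differences of Mc1r was not tested.

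Mc1r was therefore also set against melanocyte genes measured in the same library, as ratios of FPKM (fragments per length of transcript and per library total, as scaled by the authors), a description chosen after the values were seen. Per 1000 FPKM of the 8 summed melanocyte markers, Mc1r stood at 2.22, 3.54 and 1.27 in Quiescent, 2.37, 2.25 and 2.31 in Active, and 7.82, 11.4 and 4.41 in UVB. Active fell inside the range of Quiescent on this ratio, and the UVB libraries were above all others. The largest of the 8 markers by CPM differed between libraries, so the sum may be no single standard. CPM do not correct for length, so these levels do not show which marker weighs most in the FPKM sum. By CPM the largest was Mitf in Quiescent (47.3, 53.8 and 64.0 CPM), Dct in Active and in UVB replicate 3, and Sox10 in UVB replicates 1 and 2. Against Tyr, the tyrosinase gene, Mc1r was at 0.0644, 0.0663 and 0.0760 in Active and at 0.380, 0.592 and 0.175 in UVB, with Quiescent at 0.315, 0.284 and 0.0485. Against Sox10, a transcription factor of the melanocyte and glial lineages, the order turned around: 0.0640, 0.0370 and 0.0334 in Active and 0.0166, 0.0176 and 0.0165 in UVB, with Quiescent at 0.0925, 0.255 and 0.290. Sox10 itself was at 551, 561 and 660 CPM in Active and at 528, 581 and 312 in UVB, while Dct, a pigment enzyme, was at 4720 to 7230 in Active and 145 to 399 in UVB. Schwann cell markers, a glial list that can share Sox10, summed to 47.2 to 81.9 CPM in Quiescent, 516 to 859.8 in Active and 684.7 to 929.3 in UVB. The direction of Mc1r relative to the lineage between UVB and Active thus depended on the gene it was divided by. Its Quiescent ratios rest on 28 fragments in all.

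The gene lies on chromosome 8 of mouse build GRCm38, plus strand, at chr8:123407107-123410744. The 250 bases before its RefSeq start (GRCm38.p6, chr8:123406832-123407081) are shown because Mc1r moved with the pigment genes. Capitals mark 2 copies of the E-box CATGTG, the hexamer within the M-box that MITF is known to bind, the more distant one lying on the opposite strand, so that it reads CACATG here.
Mc1r: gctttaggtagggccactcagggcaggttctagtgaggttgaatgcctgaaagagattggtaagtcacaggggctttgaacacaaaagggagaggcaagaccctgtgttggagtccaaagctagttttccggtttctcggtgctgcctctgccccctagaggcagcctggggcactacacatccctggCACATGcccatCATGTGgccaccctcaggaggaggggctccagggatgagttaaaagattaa

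These copies begin 62 and 51 bases before the start. The same hexamer, searched on both strands, was found in the 250-base windows of Tyr, Tyrp1, Dct, Oca2 and Slc7a11. Pmel, Slc45a2 and Mlana, the other pigment genes listed, were not searched. The copies nearest the start follow with 9 bases on either side, 5′ to 3′ on the gene's strand, so that their flanks can be compared with that of Mc1r.
Mc1r: catgcccatCATGTGgccaccctc
Tyr: aaagttagtCATGTGctttgcaga
Tyrp1: ggagggagtCATGTGctgcctagt
Dct: acttagggtCATGTGctaacaaag
Oca2: agcttgctaCACATGgctggaatt
Slc7a11: gagttttctCATGTGgctgatgca

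They lie 51 bases before the start in Mc1r, 21 in Tyr, 46 in Tyrp1, 150 in Dct, 186 in Oca2 and 74 in Slc7a11. Of all 32851 promoter windows of that length in the table, 12.3% held CATGTG, 6.02% the palindromic E-box CACGTG and 1.55% the full cyclic AMP response element TGACGTCA. Asip, Pomc and Atrn held none of these letters in their windows. The 1 window listed for Asip, chr2:155013320-155013569, lies downstream of the start of its RefSeq span (154950599). The bases before that start were therefore not searched. The Atrn window, chr2:130906245-130906494, runs past the start of its RefSeq span (130906430), so the bases before it were searched only in part. Mgrn1 held CACGTG, 24 bases before its start, and 1 of the 4 listed windows of Gnas held CATGTG. A match is a description of the letters and not a site.

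Of the other melanocortin receptors and their accessory proteins, none had enough fragments to be tested. Mc5r, the receptor of sebaceous glands, had 1 to 12 fragments per library, and Mc4r, the receptor of hypothalamic appetite control, had 0 to 9. Mc4r had 0 fragments in the 3 Quiescent libraries and 17 over the Active ones, at least 3.99-fold higher when Quiescent is set at 3 fragments over the group. Mc2r, the corticotropin receptor, had 0 to 1, Mc3r had 0 to 5, and the receptor accessory proteins Mrap and Mrap2 had 0 to 2 and 0 to 4. Mc1r was the 1 receptor of the family with more than 12 fragments in any library.

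**Figure D1:**
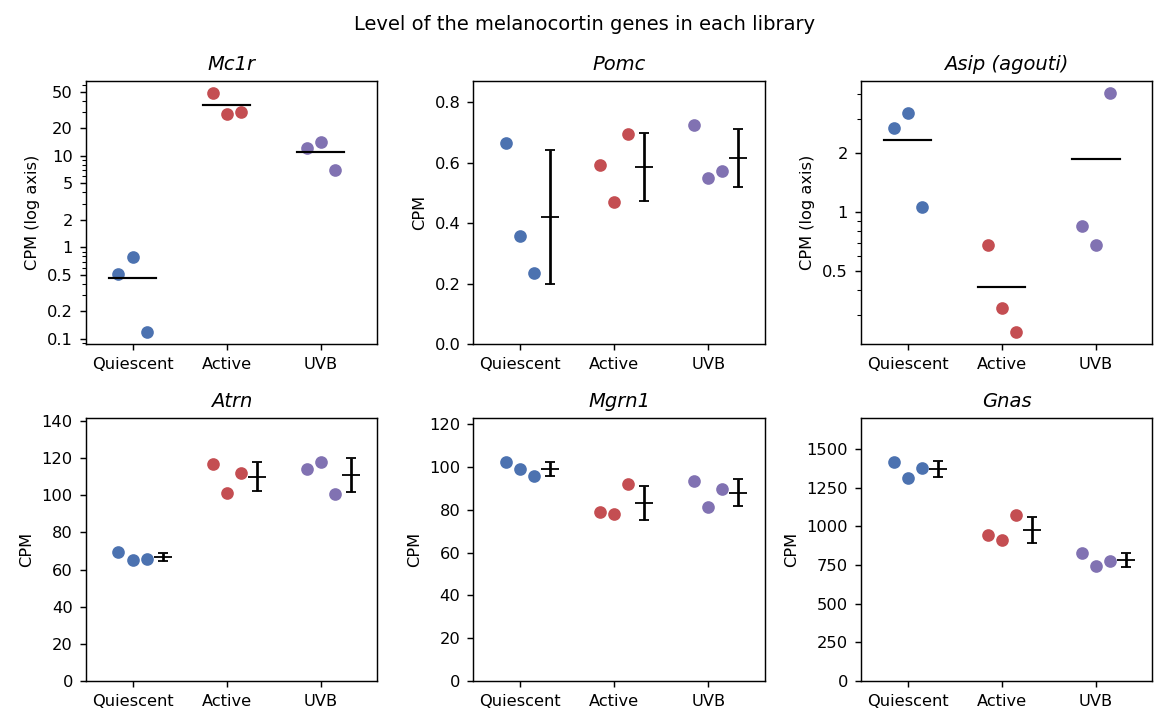
Level of each of the 6 genes in each library, in CPM, for the 3 groups of 3 libraries; points are libraries. Mc1r and Asip are on log axes with a bar at the group mean, and the other panels start at 0 with the mean and SD beside the points. Mc1r lay at 0.118 to 0.775 CPM in Quiescent and 28.6 to 48.6 in Active, and UVB replicate 3 stood apart for Asip at 4.05 CPM.

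Pomc, the precursor of melanocyte-stimulating hormone, was near the lower limit of detection in every library. It had 17, 6 and 4 fragments in Quiescent, 19, 13 and 17 in Active, and 23, 16 and 17 in UVB. Its mean level was 0.419 ± 0.221 CPM (SD, n = 3) in Quiescent, 0.586 ± 0.112 in Active and 0.615 ± 0.0955 in UVB, and the libraries of all groups overlapped. The log2 difference was 0.44 for Active against Quiescent (95% interval -0.45 to 1.33), 0.51 for UVB against Quiescent (-0.37 to 1.40) and 0.07 for UVB against Active (-0.78 to 0.93), with edgeR adjusted p-values of 0.433, 0.378 and 0.921. With scaling by library size alone, which puts the median of all genes at 0.76 in Active and 0.74 in UVB against Quiescent, Pomc passed the test in both comparisons against Quiescent.

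Enzymes that cut and finish the hormone moved in opposite directions. Pcsk1, the convertase that makes corticotropin from POMC, was at 0.709 ± 0.107 CPM in Quiescent (41 fragments over the group) and at 0 in every Active library, at least 19.4-fold lower. In UVB it was at 0.0794 ± 0.0710 CPM and fell by 3.10 ± 0.83 on the log2 scale (edgeR adjusted p = 0.0201; -3.71 without UVB replicate 2). Pcsk2, the convertase that cuts further to melanocyte-stimulating hormone, was at 0.119 ± 0.206 CPM in Quiescent, where it had 6 fragments over the group, 2.21 ± 0.406 in Active and 2.31 ± 0.187 in UVB. Its log2 fold change was 4.30 ± 0.92 in Active (edgeR adjusted p = 0.00359) and 4.37 ± 0.92 in UVB (adjusted p = 0.00442). Those fitted changes move with single Quiescent libraries, to 3.60 and 3.66 without replicate 1 and 8.91 and 8.98 without replicate 2.

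Cpe, the carboxypeptidase that trims the cut ends, was 3.63-fold lower in UVB than in Quiescent, at 81.3 ± 29.1 against 294.7 ± 109.1 CPM (edgeR adjusted p = 0.00334), and in Active it was at 207.4 ± 56.1. Pam, which amidates the peptide, did not pass the test in either comparison against Quiescent, with levels of 476.6 ± 58.6 CPM in Quiescent and 696.6 ± 79.7 in Active. Corin, a protease of the dermal papilla known to act on the agouti pathway, did not pass the test in Active against Quiescent, with 1.87 ± 2.17 CPM in Quiescent and 2.58 ± 1.13 in Active.

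Asip, the antagonist, was lower in Active than in Quiescent, and its UVB libraries were divided. It was at 2.70, 3.22 and 1.06 CPM in Quiescent (69, 54 and 18 fragments), 0.685, 0.326 and 0.245 in Active (22, 9 and 6) and 0.851, 0.685 and 4.05 in UVB (27, 20 and 120). Every Active library lay below every Quiescent one, while UVB replicate 3 was the highest of all 9 and UVB replicates 1 and 2 were below every Quiescent library. Between Active and Quiescent Asip fell by 2.44 ± 0.80 on the log2 scale, 5.44-fold lower (edgeR adjusted p = 0.0272). That call was lost without Quiescent replicate 1 or 2 or without Active replicate 2 or 3, with adjusted p-values of 0.0623 to 0.0859 and fold changes of -2.32, -2.15, -2.28 and -2.16 in that order. It was also lost with the replicate block (-2.51, edgeR adjusted p = 0.0516) and with library size alone (-1.71, adjusted p = 0.0846). Against Quiescent, UVB differed by -0.32 ± 0.74 (95% interval -1.77 to 1.12, edgeR adjusted p = 0.742), and by -1.59 without UVB replicate 3. Against Active, UVB differed by 2.12 ± 0.79 (adjusted p = 0.0837), and by 0.85 without that library.

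Agouti was also compared with markers of the dermal papilla, the cells that normally make it. UVB replicate 3 had the highest level of its group in 7 of 10 such markers, among them Wif1, a Wnt inhibitor (41.9 CPM against 11.7 and 9.48), Alx4, a homeobox factor (18.5 against 3.53 and 4.62), and Corin (5.26 against 0.441 and 0.171). Notum, which removes the lipid of Wnt proteins, and Crabp1, a retinoic acid carrier, were lowest of their group there. That library was highest of its group in the summed markers of other cell types too: fibroblast (34430 CPM against 29140 and 22060), endothelial (223.4 against 120.3 and 127.6), smooth muscle (230.8 against 102.0 and 105.2), myeloid, mast cell and adipocyte. It was also highest in the melanocyte sum (1026 against 999.5 and 841.4) and the Schwann cell sum (929.3 against 902.8 and 684.7). Its keratinocyte sum was not the highest, and its T cell sum was the lowest. In Quiescent replicate 3, where Asip was lowest of its group, 8 of 10 were lowest as well. The summed markers of other cell types were also lowest of the group there: melanocyte, keratinocyte (108.9 CPM against 1816 and 549.9), Schwann cell, myeloid, mast cell, T cell and adipocyte. The fibroblast sum was highest there. In Active the order was another one: replicate 1 had the most Asip and was highest in 2 of 10 markers, and replicate 2 was highest in 6. The 10 markers summed to 419.7 to 580.2 CPM in Quiescent, 906.2 to 1399 in Active and 226.8 to 577.2 in UVB, and none was at 0 in any library. The Active sum was mostly Enpp2, at 849 to 1340 CPM. By the same comparison of groups, Active against Quiescent, 1 of the 10 was higher and 4 were lower by the edgeR test. Of all genes tested, 29.1% were higher and 29.2% lower in that comparison. The part of any of these cell types in the level of Asip was not tested.

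**Figure D2:**
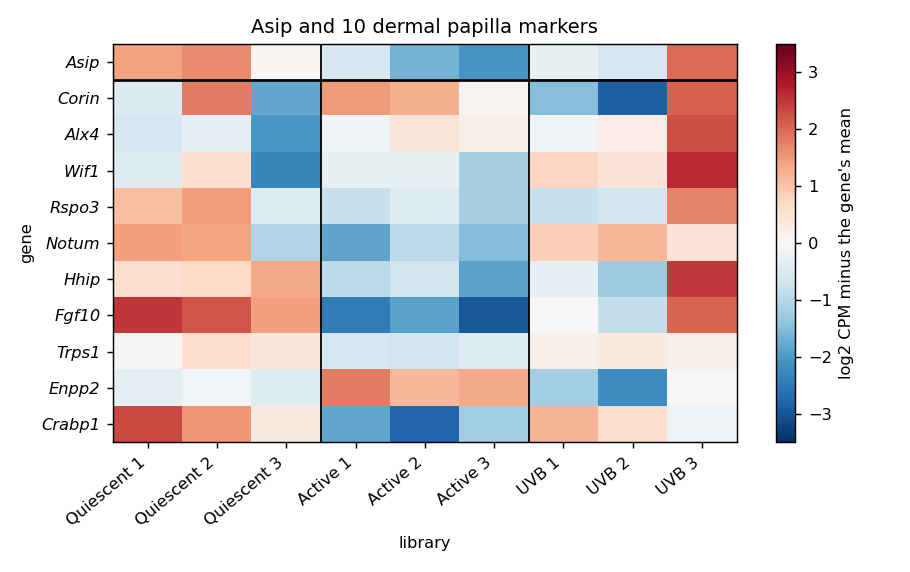
Asip and 10 dermal papilla markers in each of the 9 libraries, as log2 CPM minus the gene's mean over the libraries (red above the mean, blue below). UVB replicate 3 is red for Asip, Alx4, Wif1 and Hhip, and Asip was at 4.05 CPM there against 0.685 and 0.851 in the other UVB libraries.

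Levels of different genes were set side by side per length, on the FPKM scale. The ratio of Asip to Mc1r was 37.4, 29.3 and 63.5 in Quiescent, 0.0995, 0.0805 and 0.0568 in Active, and 0.496, 0.343 and 4.03 in UVB. Antagonist RNA was thus above receptor RNA in all 3 Quiescent libraries and in UVB replicate 3, and below it in the other 5. The ratio of 63.5 in Quiescent replicate 3 rests on 18 fragments of Asip and 2 of Mc1r. The melanocyte marker sum was lowest in Quiescent and the fibroblast sum highest there. The part of the cell mix in this ratio was not tested. The groups did not overlap on this ratio, and for 3 libraries against 3 an exact permutation test cannot go below p = 0.1. Pomc over Mc1r was 5.62, 1.98 and 8.59 in Quiescent, 0.0524, 0.0708 and 0.0980 in Active, and 0.257, 0.167 and 0.348 in UVB.

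In mean FPKM, Quiescent ranked Gnas (997), Mgrn1 (30.8), Atrn (7.53), Asip (4.55), Pomc (0.501) and Mc1r (0.130), and no neighbours in that order overlapped. Active ranked Gnas (703), Mgrn1 (25.7), Atrn (12.4), Mc1r (9.93), Asip (0.818) and Pomc (0.696), where Mc1r overlapped Atrn and Pomc overlapped Asip. UVB ranked Gnas (560.0), Mgrn1 (27.0), Atrn (12.4), Asip (3.56), Mc1r (3.05) and Pomc (0.724), where Asip and Mc1r overlapped. Mc1r thus moved from last in Quiescent to the fourth place in Active, while the top 3 kept their order.

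**Figure D3:**
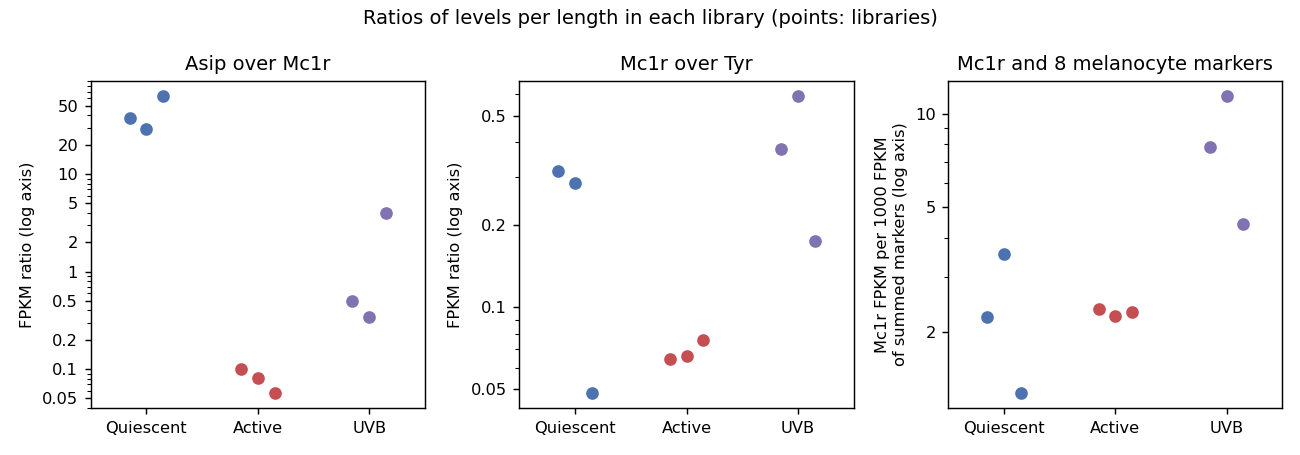
Ratios of FPKM in each library on log axes, with points for the 3 libraries of each group: Asip over Mc1r, Mc1r over Tyr, and Mc1r per 1000 FPKM of 8 summed melanocyte markers. Asip over Mc1r ran from 29.3 to 63.5 in Quiescent and 0.0568 to 0.0995 in Active. Mc1r per 1000 marker FPKM was 4.41 to 11.4 in UVB, above all other libraries. Mc1r over Sox10, not plotted, was 0.0165 to 0.0176 in UVB, below all other libraries.

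The counts of agouti carry a limit of annotation. Its GENCODE span on GRCm38 (chr2:154791402-155051012, plus strand) shares exon bases with Raly on the same strand, which had 2173 to 10972 fragments per library, while the RefSeq span of agouti starts downstream of Raly at position 154950599. The annotation behind the authors' counts is not known here, so fragments of these neighbours may not have been told apart.

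Atrn, the transmembrane attractin that agouti signalling needs, was at 69.3, 65.4 and 65.8 CPM in Quiescent, 116.9, 101.5 and 112.1 in Active, and 114.2, 118.2 and 100.8 in UVB. All 6 Active and UVB libraries were above all Quiescent ones, and Active and UVB overlapped. Atrn was 1.65-fold higher in Active than in Quiescent (log2 fold change 0.72 ± 0.10 SE, edgeR adjusted p = 0.000293) and 1.66-fold higher in UVB (0.73 ± 0.10, adjusted p = 0.000434). The UVB and Active means differed by 0.01 (95% interval -0.18 to 0.20; edgeR adjusted p = 0.946).

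Atrnl1, the attractin-like paralogue, went the opposite way. It was at 196.6 ± 18.7 CPM in Quiescent, 39.6 ± 3.56 in Active and 71.9 ± 16.6 in UVB (SD, n = 3). It was 4.96-fold lower in Active (log2 -2.31 ± 0.17, edgeR adjusted p = 1.34e-05) and 2.73-fold lower in UVB (-1.45 ± 0.17, adjusted p = 0.000197) than in Quiescent, and 1.82-fold higher in UVB than in Active (adjusted p = 0.00851). No pair of groups overlapped for Atrnl1.

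Mgrn1, the ubiquitin ligase mahogunin, changed little. It was at 102.5, 98.9 and 95.6 CPM in Quiescent, 79.0, 78.0 and 92.1 in Active and 93.3, 81.1 and 89.7 in UVB. Every Quiescent library was above the other 6, but the difference did not pass the test in Active (-0.25 ± 0.10, edgeR adjusted p = 0.0560) or in UVB (-0.17 ± 0.10, adjusted p = 0.193). Its sign against Quiescent turned with scaling by library size alone, to 0.49 in Active and 0.55 in UVB, both below the shift of the median gene under that scaling, and 6 alternatives called it lower in Active, DESeq2 among them (-0.27, adjusted p = 0.0173). An antisense gene, Gm16861, overlaps its last exons and had 12 to 117 fragments.

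Gnas, the G protein alpha subunit that couples the receptor to adenylyl cyclase, was the most abundant of the 6 and was lower in Active and in UVB. It was at 1419, 1315 and 1376 CPM in Quiescent, 941.7, 911.8 and 1072 in Active, and 828.9, 745.0 and 774.3 in UVB. No pair of groups overlapped, with UVB lowest. Gnas fell by 0.49 ± 0.12 on the log2 scale in Active against Quiescent, 1.40-fold lower (edgeR adjusted p = 0.00637), although scaling by library size alone gave 0.26, still below the median gene. It fell by 0.81 ± 0.12 in UVB against Quiescent, 1.75-fold lower (adjusted p = 0.000665), a call that was lost with library size alone (-0.08). Between UVB and Active the difference of -0.32 ± 0.12 did not pass (edgeR adjusted p = 0.0808), though DESeq2 called it (-0.33, adjusted p = 0.00375). Gnas is an imprinted locus with several promoters, and the gene-level counts do not separate its transcripts.

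**Figure D4:**
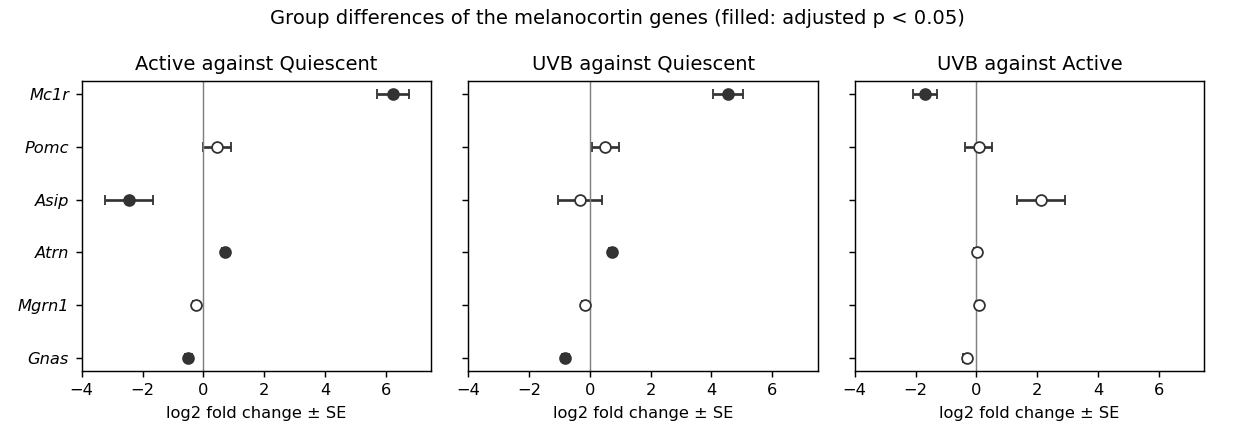
Log2 fold change of each of the 6 genes in the 3 comparisons, with bars for the standard error and filled points where the edgeR adjusted p was below 0.05. Mc1r stood at 6.24, 4.55 and -1.69, and the differences of Atrn, Mgrn1 and Gnas were within 0.81 of 0. With library size alone, Mgrn1 changed sign in both comparisons against Quiescent, Gnas and Asip in 1 each, and Atrn in UVB against Active.

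Among the 6 genes, 2 were higher (Mc1r and Atrn) and 2 lower (Asip and Gnas) in Active against Quiescent, where 58.3% of all 15078 genes tested were called (29.1% higher and 29.2% lower). In UVB against Quiescent, 2 were higher (Mc1r and Atrn) and 1 lower (Gnas), where 49.0% of all genes were called (25.8% higher and 23.2% lower). In UVB against Active only Mc1r was called, as lower, where 24.0% of all genes were called (14.8% higher and 9.19% lower). That background itself rests on single libraries: 2226 genes were higher and 1386 lower with all 9, and 999 and 453 without Active replicate 2. Groups did not overlap for 5, 4 and 2 of the 6 genes, against 66.2%, 57.6% and 46.7% of all genes tested. Nothing particular to the 6 genes is read from these counts.

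The wider pathway was described through 12 lists with 88 genes, the 6 genes included, of which 81 were tested. Without those 6, 62.7% of 75 were called in Active against Quiescent (27 higher and 20 lower), 56.0% in UVB against Quiescent (28 and 14) and 30.7% in UVB against Active (9 and 14). Over all genes these shares were 58.3%, 49.0% and 24.0%. With scaling by library size alone, the 81 genes divided into 48 higher and 11 lower in Active and 47 and 4 in UVB against Quiescent. The 9 higher genes in UVB against Active became 14 with DESeq2 and 5 without Active replicate 2.

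**Figure D5:**
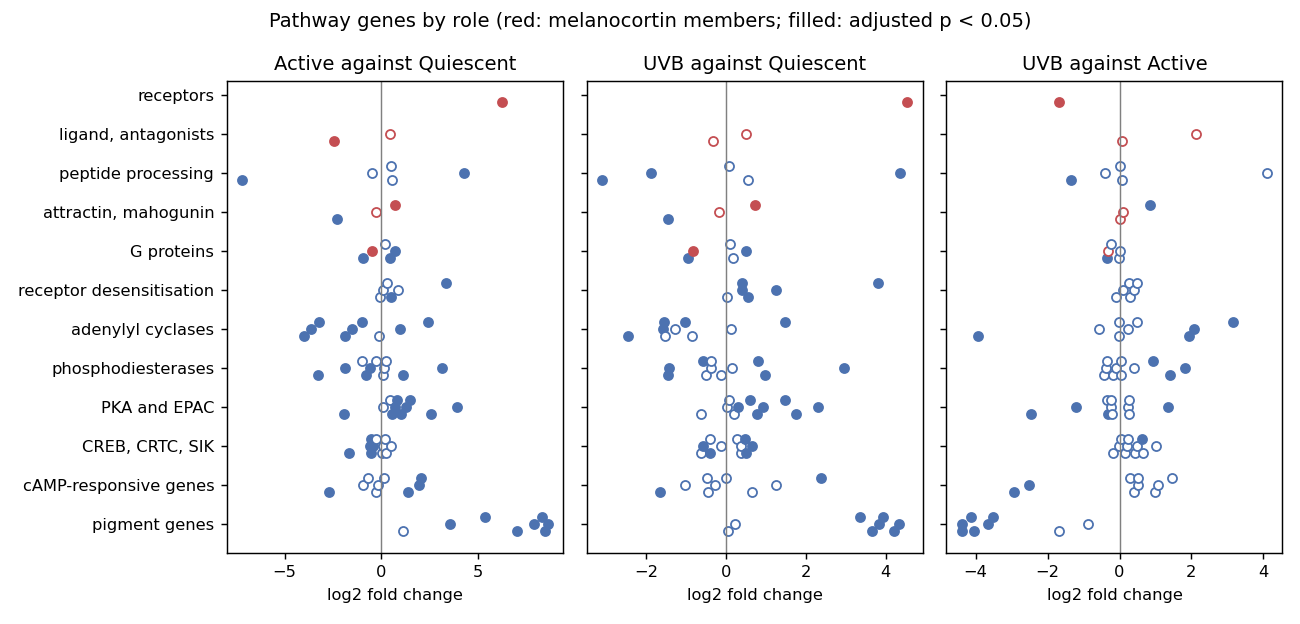
Log2 fold changes of the 81 tested pathway genes by role in the 3 comparisons, each panel with its own scale; red points are the 6 melanocortin genes and filled points passed the edgeR test at 0.05. The leftmost processing gene in Active against Quiescent is Pcsk1, which had 0 fragments in Active, so its fitted value is no estimate of size. Pigment genes lie to the right against Quiescent (7 and 6 of 8 higher) and to the left in UVB against Active (6 of 8 lower). Over all genes these shares were 29.1%, 25.8% and 9.19%.

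Among other G protein subunits, Gnb1, a beta subunit, was higher in Active (0.72 ± 0.11 on the log2 scale, edgeR adjusted p = 0.000456) and in UVB (0.50 ± 0.11, adjusted p = 0.00481) than in Quiescent. Gnal, the olfactory relative of Gnas, was 1.95-fold lower in Active (4.46 ± 0.460 against 8.68 ± 0.701 CPM, edgeR adjusted p = 0.00471), a call lost with library size alone (-0.22). Of 6 genes of receptor desensitisation, 2 were higher in Active and 5 in UVB than in Quiescent and none lower, where 29.1% and 25.8% of all genes were called higher. Grk3, a receptor kinase, rose from 5.88 ± 4.81 CPM in Quiescent to 58.6 ± 10.3 in Active and 82.3 ± 13.04 in UVB (log2 3.33 and 3.82, edgeR adjusted p = 0.000427 and 0.000363; 4.20 and 4.69 without Quiescent replicate 2). The Schwann cell sum and Sox10 were likewise low in Quiescent and high in Active and UVB, as was Pde7b, and the part of glial cells was not tested.

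Of 9 adenylyl cyclases, which make cyclic AMP, 6 were lower and 2 higher in Active compared with Quiescent, with a median log2 difference of -1.54 against 0.01 over all genes. The share called was 88.9% there and 55.6% in UVB against Quiescent, where 58.3% and 49.0% of all genes were called. Adcy7 fell from 242.3 ± 39.7 CPM in Quiescent to 19.4 ± 8.87 in Active (-3.64 ± 0.36, edgeR adjusted p = 5.11e-05) and was at 82.1 ± 27.3 in UVB, 4.22-fold above Active (adjusted p = 0.00477). Adcy4 went from 27.9 ± 4.23 to 1.74 ± 0.662 CPM (16.02-fold lower, adjusted p = 0.000152) and was at 15.5 ± 9.89 in UVB, 3.16 higher than in Active on the log2 scale (adjusted p = 0.00326; 2.504 without UVB replicate 3). In UVB against Quiescent, 4 cyclases were lower and 1, Adcy3, was higher (2.79-fold, edgeR adjusted p = 0.00208), and Adcy2 fell by 2.45 ± 0.37 (adjusted p = 0.000784; -3.04 without UVB replicate 3). Adcy7 and Adcy4 moved with the summed fibroblast markers and with endothelial markers (298.4 to 403.4 CPM in Quiescent, 17.5 to 21.9 in Active and 120.3 to 223.4 in UVB), and the part of those cells was not tested.

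The phosphodiesterases, which degrade cyclic AMP, were mixed: of 11, 2 were higher and 4 lower in Active, and 3 higher and 3 lower in UVB, than in Quiescent. The share called was 54.5% in both, near the 58.3% and 49.0% of all genes. Pde7b rose from 7.97 ± 3.31 CPM in Quiescent to 69.3 ± 4.31 in Active (3.12 ± 0.30, edgeR adjusted p = 4.23e-05) and 61.5 ± 15.5 in UVB (2.95 ± 0.30, adjusted p = 0.000104). Pde4a was 3.73-fold lower in Active than in Quiescent (edgeR adjusted p = 6.55e-05) and 2.67-fold higher in UVB than in Active (adjusted p = 0.00245). Pde3b was about level in Quiescent and Active at 12.5 ± 1.84 and 13.1 ± 0.611 CPM, and was higher in UVB at 24.9 ± 0.554, by 0.99 ± 0.14 against Quiescent (edgeR adjusted p = 0.000521) and 0.92 ± 0.14 against Active (adjusted p = 0.00323).

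Of 11 genes for protein kinase A, its inhibitors and the cyclic AMP exchange factors, 8 were higher and 1 lower in Active, and 7 higher and none lower in UVB, than in Quiescent, with medians of 0.82 and 0.60 on the log2 scale against 0.01 and 0.02 over all genes. The share called was 81.8% in Active and 63.6% in UVB. Of all genes, 58.3% and 49.0% were called, 29.1% and 25.8% as higher. Prkar1a, a regulatory subunit of the kinase, rose from 290.8 ± 28.9 CPM to 513.4 ± 13.1 in Active and 439.5 ± 11.2 in UVB (edgeR adjusted p = 0.000233 and 0.00202). Prkar2a, another regulatory subunit, was 1.92-fold higher in UVB (edgeR adjusted p = 0.00190). Rapgef4, the exchange factor EPAC2, rose from 2.63 ± 0.653 CPM to 40.7 ± 9.80 in Active (3.94 ± 0.31, edgeR adjusted p = 1.58e-05) and fell by 2.46 ± 0.28 from there to UVB, at 7.37 ± 2.10 (adjusted p = 0.00114). Pkia, a kinase inhibitor, was 2.38-fold higher in Active than in Quiescent (edgeR adjusted p = 3.55e-05) and 2.34-fold lower in UVB than in Active (adjusted p = 0.000642). The melanocyte and Schwann cell sums were also higher in Active and UVB than in Quiescent, the melanocyte sum highest in Active, and their part was not tested.

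Of the 11 genes of CREB, its coactivators and the salt-inducible kinases, none was higher and 5 were lower in Active, while 3 were higher and 2 lower in UVB, than in Quiescent. The share called was 45.5% in both, below the 58.3% and 49.0% of all genes. Sik1, a kinase that cyclic AMP signalling induces, was 3.14-fold lower in Active (121.7 ± 44.4 to 38.8 ± 12.6 CPM, edgeR adjusted p = 0.00368). Creb1 itself was 1.39-fold higher in UVB (edgeR adjusted p = 0.00553). Crtc3, a CREB coactivator, fell by 0.55 ± 0.12 in Active and by 0.56 ± 0.12 in UVB (edgeR adjusted p = 0.00340 and 0.00400), though library size alone gave 0.20 and 0.16.

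Of 9 genes that cyclic AMP is known to induce, 3 were higher and 1 lower in Active, and 1 higher and 1 lower in UVB, than in Quiescent. The shares called, 44.4% and 22.2%, were below those of all genes (58.3% and 49.0%). Dusp1, a phosphatase, fell from 1306 ± 221 CPM to 196.9 ± 128.5 in Active (-2.73 ± 0.46, edgeR adjusted p = 0.000983; -3.39 without Active replicate 3). Ppargc1a, a coactivator of mitochondrial genes, was 4.21-fold higher in Active than in Quiescent (edgeR adjusted p = 0.00103) and 5.78-fold lower in UVB than in Active (adjusted p = 0.00265). Nr4a2, an orphan nuclear receptor, was 5.19-fold higher in UVB than in Quiescent (edgeR adjusted p = 0.00185). Mitf was at 55.0 ± 8.44 CPM in Quiescent, 210 ± 146 in Active and 27.3 ± 9.58 in UVB. It was 3.82-fold higher in Active than in Quiescent (edgeR adjusted p = 0.00545) and 7.7-fold lower in UVB than in Active (adjusted p = 0.00407). Every UVB library was below every Quiescent one for Mitf, though that difference did not pass (-1.01 ± 0.44, edgeR adjusted p = 0.0876).

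Pigment genes are the output of the pathway. Of 8, 7 were higher in Active and 6 in UVB than in Quiescent, and 6 were lower in UVB than in Active, with medians of 7.46, 3.76 and -3.86 on the log2 scale. The shares called were 87.5%, 75.0% and 75.0%, where 58.3%, 49.0% and 24.0% of all genes were called. Tyr was at 2.02 ± 0.517 CPM in Quiescent, 474 ± 176 in Active and 28.8 ± 7.54 in UVB. Slc45a2, a transporter of the pigment granule, was at 0.348 ± 0.212, 126.4 ± 35.2 and 7.21 ± 3.20 CPM. From Active to UVB, Tyr fell by 4.04 ± 0.33 (edgeR adjusted p = 0.000366) and Slc45a2 fell by 4.13 ± 0.38 (adjusted p = 0.000628), while Mc1r fell by 1.69 ± 0.40 on the same log2 scale. The difference between those falls was not tested. Most of these genes stand among the melanocyte markers too, so they are no evidence apart from those.

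Genes with profiles most like each of the 6 were sought over the 9 libraries by the root mean square difference of log2 CPM, each gene centred on its mean. For Mc1r the nearest were Fam178b (0.359), Gpc1 (0.418) and Rnf128 (0.480), with Fam178b at mean levels of 0.764, 73.1 and 18.6 CPM in Quiescent, Active and UVB. Those for Asip were Lrrn1 (0.318), Car3 (0.417) and Tnfsf10 (0.427). Pomc was nearest to Pcdhb20 (0.171), Atrn to Cbfb (0.0677), Mgrn1 to Trim26 (0.0511) and Gnas to Rnf185 (0.0494). Over the 9 libraries, Pearson's r of log2 CPM was 0.94 between Mc1r and Atrn and -0.87 between Atrn and Gnas, given as a description, since the points share their groups and libraries.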

How the data were processed

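RNA of 9 libraries was measured after poly(A) selection with a directional kit, per the labels' protocols. The submitters' processing notes name cutadapt 1.8, TopHat2 2.0.13, Cuffdiff 2.2.1 and the build mm10. Their settings, the gene models and whether strand was used in counting were not known here, so overlapping antisense genes may share reads. The deposited table gives the authors' estimated counts per gene and library, of which 1.08% were not whole to within 1e-06 (all 54 values of the 6 genes were), and FPKM values that the authors had scaled between libraries, per the file headers. Library totals were 21045070 to 35131778 fragments. Counting intervals and the limit of 3 fragments for a count of 0 cover counting error only.

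Rounded counts went into edgeR 4.0.16 (R 4.3.3), with 1 fit of all 9 libraries, TMM factors (0.660 to 0.748 in Quiescent, 1.163 to 1.225 elsewhere), filterByExpr (15078 of 23361 genes kept), quasi-likelihood F test, two-sided, Benjamini-Hochberg over all genes tested, threshold 0.05. The coefficient of variation between replicates was 0.28. CPM are counts per 1000000 of the scaled total. Groups and replicate numbers came from the labels. The edgeR test was also run on simulated counts, for Active against Quiescent only, with a small set of genes changed equally in both directions. The simulation held no group difference in composition such as the collagen share, so it is no check of the scaling. Its outcome is not given here. Alternatives were other scaling, DESeq2 1.42.0, limma 3.58.1 on log2(FPKM + 1) and log2(FPKM + 0.1), other filters, only the libraries compared, a replicate block, and each library left out.

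The 6 genes and the lists were chosen with earlier results of these data known. Named by rule were these 6, the receptor, ligand, processing and attractin lists, up to 3 genes per other list with the smallest adjusted p in a comparison, and 3 genes of the most alike profile, predicted genes left out; single marker genes were added after their values were seen. Agouti was matched to the symbol a through RefSeq (GRCm38.p6), which also gave the promoter sequences; other gene positions are from GENCODE on GRCm38, the assembly of mm10. Protein sequences were not used here.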

Additional observations from a re-analysis of the deposited data

How the results depend on the processing

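Against Quiescent, Mc1r and Atrn kept their direction and call under all 19 alternatives. Scaling by library size alone, which leaves the median of all genes at 0.76 (Active) and 0.74 (UVB) on the log2 scale, called 8651 genes higher and 2208 lower in Active and 8746 and 1247 in UVB, and of the pathway genes 48 and 11, and 47 and 4. Under it, Asip was at -1.71 in Active (call lost) and 0.37 in UVB, Pomc at 1.17 and 1.22 (both then called), Mgrn1 at 0.49 and 0.55, Gnas at 0.26 and -0.084, and Crtc3 at 0.20 and 0.16. For UVB against Active it gave -0.34 for Gnas (then called) and -0.015 for Atrn.

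In Active against Quiescent, Mgrn1 was called lower with relative log expression factors (-0.27), DESeq2 (-0.27), limma on log2(FPKM + 1) (-0.25) and on log2(FPKM + 0.1) (-0.26), the filter of 50 counts in 3 libraries (-0.31) and without Active replicate 3 (-0.31). In UVB against Active, DESeq2 called Asip (2.11), Gnas (-0.33) and 14 pathway genes as higher, and Atrn was at -0.013 with upper quartile factors and at -0.0027 and -0.0031 with limma on the same FPKM scales.

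Leaving out each library in turn gave -3.00 to -2.15 for Asip and -0.31 to -0.21 for Mgrn1 in Active against Quiescent, and -1.59 to 0.073 for Asip in UVB against Quiescent. In UVB against Active it gave -1.90 to -1.42 for Mc1r, -0.064 to 0.17 for Pomc, -0.048 to 0.076 for Atrn, 999 to 2548 genes higher, 453 to 1678 lower and 5 to 11 pathway genes higher. The lowest of these counts came without Active replicate 2.

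Same-numbered libraries showed no uniform pairing: their deviations from the group means correlated at -0.17 to 0.23, and 9 of 18 comparisons, each among 3 libraries, were highest with the own number. Between Quiescent and Active the 3 correlations were all positive (0.126, 0.0652 and 0.231), so these values do not settle whether libraries were paired. With the replicate block, Asip in Active against Quiescent was at -2.51 (edgeR adjusted p = 0.0516), and no other call of the 6 genes changed. Pomc had too few fragments for the filter of 50. Of the 872 other values of named pathway genes, 869 kept direction and call. Mc1r in Quiescent rested on 2 to 13 fragments per library and Pomc on 4 to 23 in any group. The cause of these changes was not tested.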
